A study of Mus musculus with 6 samples.

Results

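The genes described here are 10 genes of the circadian clock and its output, namely DBP, TEF, PER1, PER2, PER3, NR1D1, NR1D2, BHLHB2 (the older name of Bhlhe40), ARNTL (also known as Bmal1) and CRY1. Every probe whose symbol on the array is one of these names was taken. The 10 genes were chosen by their measured signal on the -GFs, FGF2 and BMP4 arrays, so their values are given as a description and carry no test. They have 15 of the 45281 probes and are 10 of the 30854 gene names on the array. A probe was retained when its detection p-value, which compares it with the negative control beads of the array, was below 0.05 in both replicates of a group, for any of the 3 groups. By this filter, 8 of the 10 genes had a detected probe, as did 11872 genes in all.

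The clock of mammalian cells is a feedback loop of transcription. ARNTL and CLOCK bind E-box sequences and activate the PER and CRY genes, whose proteins return to inhibit them, while NR1D1 and NR1D2 repress ARNTL. DBP and TEF are output factors that act on D-box sequences, and their own transcription follows the E-box arm of the loop. Fibroblast-like cells in culture carry such a clock, and serum, growth factors or glucocorticoids can shift it through early induction of PER genes.

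PA6 is a murine stromal line used as a feeder for embryonic stem cells, here grown alone. Confluent monolayers spent 3 h in serum-free medium, either with no growth factor (-GFs) or with recombinant FGF2 at 20 ng/ml or BMP4 at 10 ng/ml, the latter being the dose in the sample labels (the methods on the co-cultures give a lower one). Each of the 3 groups had 2 biological replicates, and each replicate comprised 1 well per condition, so that arrays with the same replicate number form a pair. The only time was 3 h, so the phase of the clock was not followed, and the -GFs cells had also spent 3 h in serum-free medium.

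The median intensity of the 6 Illumina MouseWG-6 v2.0 arrays lay between 153.4 and 168.1, and between 15509 and 16459 probes were detected per array. Of the stromal markers, 10 of 10 were detected. The listed markers CDH5, PECAM1 and TIE1 (endothelial cells), PTPRC and CD68 (haematopoietic cells), TUBB3 and MAP2 (neurons), and NANOG and SOX2 (stem cells) were not retained. In the same lists, the endothelial marker TEK and the stem cell marker POU5F1 passed, each being detected on 6 of the 6 arrays. With FGF2, 9 of the 10 stromal markers were lower and none was called. In limma, FGF2 called 271 genes up and 148 down against -GFs (432 and 362 with neqc, a background correction from the detection p-values, and 208 and 209 with median scaling), whereas BMP4 called 1 gene, with 215 genes at an unadjusted p under 0.05. A call here is an absolute log2 fold change over 1 with a Benjamini-Hochberg adjusted p under 0.1 over all 11872 genes. In these bulk samples fewer cells of a type and less RNA per cell cannot be told apart.

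Stretches of DNA before the annotated start of DBP, TEF, PER1 and NR1D1 are shown because E-box and D-box sequences connect these genes in the clock. They come from the RefSeq annotation of GRCm38.p6, which held a window of 250 bases before to 50 bases after a start for 8 of the 10 genes. No window was used for PER2 and BHLHB2. The stretches are chr7:45704997-45705099 (plus strand) for DBP, chr15:81802423-81802672 (plus strand) for TEF, chr11:69098771-69098800 (plus strand) for PER1 and chr11:98775378-98775627 (minus strand) for NR1D1. Those of DBP, TEF and NR1D1 lie upstream of the annotated gene, and the 30 bases of PER1 lie inside the gene, upstream of 1 of its starts. The start in the DBP window also lies inside the annotated gene. The DBP stretch therefore ends before that start, and the rest of its window was searched but is not shown. Capitals mark the E-box CACGTG in TEF and PER1 and, in NR1D1, the E-box variant CACGTT read on the opposite strand.
DBP: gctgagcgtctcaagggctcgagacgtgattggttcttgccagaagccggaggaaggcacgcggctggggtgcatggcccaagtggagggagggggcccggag
TEF: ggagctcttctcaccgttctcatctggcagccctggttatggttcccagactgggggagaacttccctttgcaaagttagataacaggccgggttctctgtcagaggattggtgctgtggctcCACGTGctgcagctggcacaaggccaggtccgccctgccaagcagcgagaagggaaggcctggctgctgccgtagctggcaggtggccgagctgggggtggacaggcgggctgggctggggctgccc
PER1: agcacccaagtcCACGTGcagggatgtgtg
NR1D1: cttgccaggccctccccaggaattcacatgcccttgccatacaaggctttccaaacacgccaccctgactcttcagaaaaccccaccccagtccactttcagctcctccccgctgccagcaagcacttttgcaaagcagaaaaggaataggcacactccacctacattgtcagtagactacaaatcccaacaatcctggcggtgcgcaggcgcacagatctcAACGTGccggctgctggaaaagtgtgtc

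On both strands, the windows were searched for the E-box CACGTG, its variant CACGTT, the D-box in the letters TTATGTAA or in the letters TTACGTAA, the nuclear receptor binding motif AGGTCA, the cAMP response element TGACGTCA and the serum response element. The E-box CACGTG was present in windows of TEF, PER1 and CRY1, that is 3 of 8 genes, and in 7.15% of all 32851 windows of the annotation (8.09% of the genes that have one). The variant CACGTT was found in NR1D1 and CRY1, and in 4.68% of all windows. PER3 held TTATGTAA at 2 positions, which begin 205 and 158 bases before its start, and 0.938% of all windows held it. The motif AGGTCA, to which NR1D1 and NR1D2 proteins can bind, occurred in PER1, NR1D2 and ARNTL and in 16.3% of all windows. No window of the 8 genes held TTACGTAA, TGACGTCA or the serum response element, which 0.119%, 1.79% and 1.63% of all windows held. The window of DBP held none of the 7 motifs. These matches are letters in a window, and binding was not measured.

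**Figure D1:**
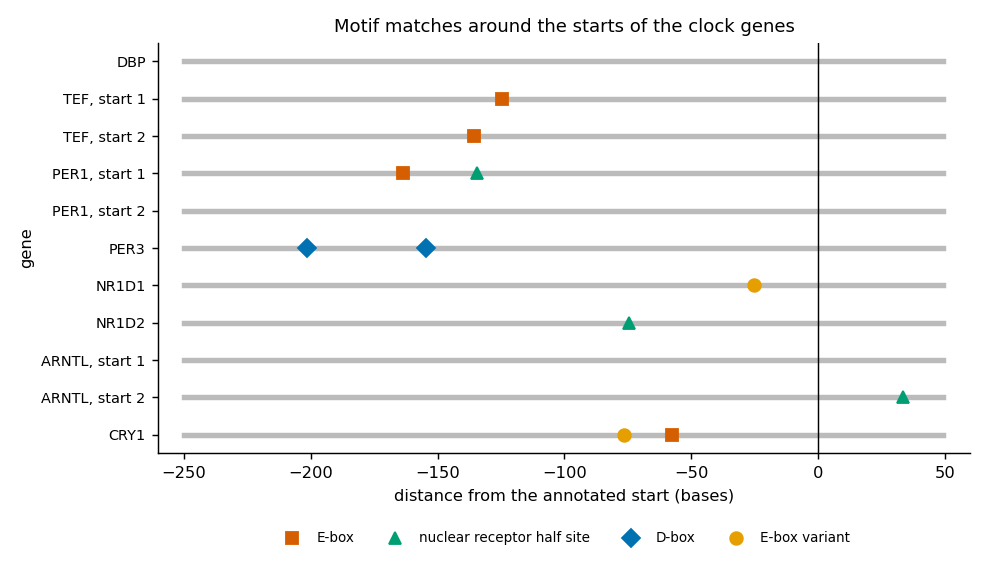
Motif matches (symbols) in the windows (grey lines) of the 8 genes with a RefSeq window, by distance in bases from the annotated start, with a line per start where a gene has several. The E-box lies 127 and 138 bases before the starts of TEF and 166 bases before the first start of PER1, and the window of DBP is empty.

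With FGF2, DBP was much lower and BHLHB2 much higher than in -GFs medium, whereas TEF, PER1, PER2, NR1D1 and ARNTL differed by less than a log2 unit and the NR1D2 groups overlapped. With BMP4, no gene of the 8 differed by as much as a log2 unit. The plot of the values by array shows all of these levels.

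**Figure D2:**
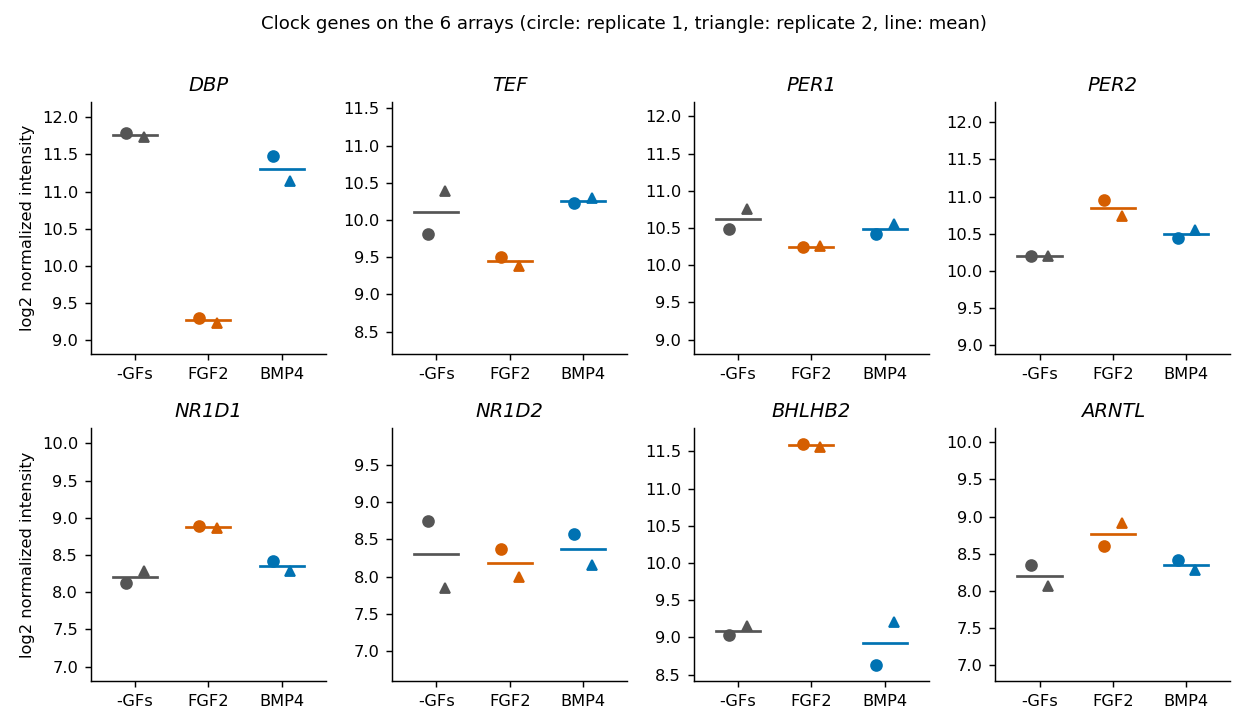
Log2 normalized intensity of the 8 detected clock genes on the 6 arrays, with each axis spanning the same number of log2 units. Circles are replicate 1, triangles replicate 2 and lines the mean of a group. DBP stands near 9.3 on both FGF2 arrays against 11.1 to 11.8 on the other arrays, and BHLHB2 stands near 11.6 against 8.6 to 9.2.

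Among the output factors, DBP, a transcription factor of the PAR bZIP family, was the gene of the 8 that lay furthest below -GFs with FGF2. Its raw intensity was 3955.6 and 3274.8 in -GFs, 632.1 and 573.6 with FGF2, and 2567.8 and 2335.7 with BMP4. After normalization, its log2 intensity was 11.78 and 11.73 in -GFs, 9.30 and 9.24 with FGF2, and 11.48 and 11.14 with BMP4. Both FGF2 arrays lay far below all others, and both BMP4 arrays lay between the groups, without overlap with -GFs. The log2 fold change with FGF2 was -2.49 ± 0.17 (SE, n = 2 per group), which leaves 17.8% of the -GFs level, and it was -2.49 in each of the 2 replicate pairs. Only 4 of the 11872 genes had a lower log2 fold change with FGF2, DBP being at rank 5 from the lowest. The difference with BMP4 was smaller and varied more between the pairs. With BMP4, DBP differed from -GFs by -0.45 ± 0.17 on the log2 scale, with -0.31 in the first pair and -0.60 in the second. Directly between the factors, DBP was lower with FGF2 than with BMP4 by a log2 difference of -2.04.

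TEF, another PAR bZIP factor, was also lower with FGF2, by a smaller amount. Its log2 intensity was 9.81 and 10.40 in -GFs, 9.50 and 9.39 with FGF2, and 10.23 and 10.29 with BMP4. The FGF2 arrays lay below the 4 others, while the BMP4 arrays lay within the range of -GFs. The log2 fold change with FGF2 was -0.66 ± 0.21 (SE, n = 2 per group), unevenly divided between -0.30 and -1.01 in the pairs. With BMP4 it was 0.16 ± 0.21, and against BMP4 the FGF2 level differed by -0.82. The SD of TEF was 0.42 in -GFs, 0.08 with FGF2 and 0.04 with BMP4. The other TEF probe was detected on 0 of the 6 arrays.

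Among the repressors of the loop, the PER genes differed from -GFs in opposite directions. PER1, an inhibitor of ARNTL and CLOCK that is known as an early response gene of the clock, had a log2 intensity of 10.49 and 10.76 in -GFs, 10.24 and 10.26 with FGF2, and 10.43 and 10.55 with BMP4. Its FGF2 arrays were the lowest of the 6. The log2 fold change with FGF2 was -0.37 ± 0.16 (SE, n = 2 per group), with -0.25 and -0.50 in the pairs, and with BMP4 it was -0.14. A second detected probe of PER1 gave -0.30 with FGF2 and -0.15 with BMP4, and on it the FGF2 arrays (9.55 and 9.41) overlapped the -GFs arrays (9.46 and 10.11).

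PER2, a close relative of PER1 with a like role, was higher with FGF2. Its log2 intensity was 10.21 on both -GFs arrays, 10.95 and 10.74 with FGF2, and 10.45 and 10.55 with BMP4. The 3 groups did not overlap, with BMP4 between the others. PER2 gave a log2 fold change of 0.64 ± 0.15 with FGF2 (0.75 and 0.53 in the pairs) and 0.29 ± 0.15 with BMP4 (0.24 and 0.34 in the pairs). The second detected probe of PER2 gave a smaller difference of 0.35 with FGF2 and, with BMP4, one of the other sign, -0.08. On this probe the FGF2 arrays (10.36 and 9.96) overlapped the -GFs arrays (10.02 and 9.61). The third PER2 probe was not detected on any array.

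PER3 and CRY1, another PER repressor and a partner of the PER proteins, had 1 probe each and did not pass the filter. The PER3 probe was detected on 1 of the 6 arrays, a BMP4 array, at raw intensities between 124.1 and 184.7. The CRY1 probe was detected on 0 of 6 arrays, at 107.8 to 144.0. For both genes only a bound near the background of the arrays is available, and no fold change is given.

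BHLHB2, a repressor that competes at E-boxes and that many growth signals induce, was the gene of the 8 that lay furthest above -GFs with FGF2. Its raw intensity was 603.7 and 536.1 in -GFs, 3074.2 and 2953.2 with FGF2, and 380.5 and 596.6 with BMP4. In log2, these values were 9.03 and 9.16, 11.60 and 11.56, and 8.63 and 9.21 after normalization. The FGF2 arrays stood far above all others, and the BMP4 arrays lay on both sides of -GFs. BHLHB2 thus had a log2 fold change of 2.49 ± 0.21 with FGF2 (SE, n = 2 per group), or 5.61-fold, with 2.57 and 2.41 in the pairs, at rank 17 from the highest of the 11872 genes. With BMP4 it was -0.17 ± 0.21, with pairs of opposite sign (-0.40 and 0.05). Between the factors, BHLHB2 was higher with FGF2 than with BMP4 by 2.66 on the log2 scale.

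The nuclear receptors that repress ARNTL were unlike each other. NR1D1 (REV-ERB alpha) had a log2 intensity of 8.13 and 8.29 in -GFs, 8.89 and 8.86 with FGF2, and 8.42 and 8.29 with BMP4. Its FGF2 arrays lay above the 4 others. NR1D1 had a log2 fold change of 0.67 ± 0.15 with FGF2 (SE, n = 2 per group), 0.76 and 0.57 in the pairs, and with BMP4 it was 0.15 ± 0.15.

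NR1D2 (REV-ERB beta) had a log2 intensity of 8.75 and 7.84 in -GFs, 8.38 and 7.99 with FGF2, and 8.57 and 8.16 with BMP4. Its groups overlapped, and its log2 fold change of -0.12 ± 0.32 with FGF2 had pairs of opposite sign (-0.38 and 0.14). In all 3 groups NR1D2 was lower in replicate 2 than in replicate 1, by 0.91, 0.39 and 0.41 log2 units, and 7.59% of all genes had a larger mean difference between the replicates. The summed raw intensity of the adipocyte markers (4 on the array, of which PPARG and CFD passed the filter and ADIPOQ and FABP4 did not) ran from 3005.9 to 3398.4 on the replicate 1 arrays and from 5684.2 to 6955.3 on those of replicate 2. Its part in the NR1D2 values was not tested. The other NR1D2 probe was not detected on any array.

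ARNTL, the activator of the loop and the target of both receptors, had a log2 intensity of 8.35 and 8.07 in -GFs, 8.61 and 8.92 with FGF2, and 8.41 and 8.28 with BMP4. The FGF2 arrays lay above the others, and those of BMP4 reached into the range of -GFs. ARNTL gave a log2 fold change of 0.56 ± 0.18 with FGF2 (0.26 and 0.85 in the pairs) and 0.14 ± 0.18 with BMP4.

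**Figure D3:**
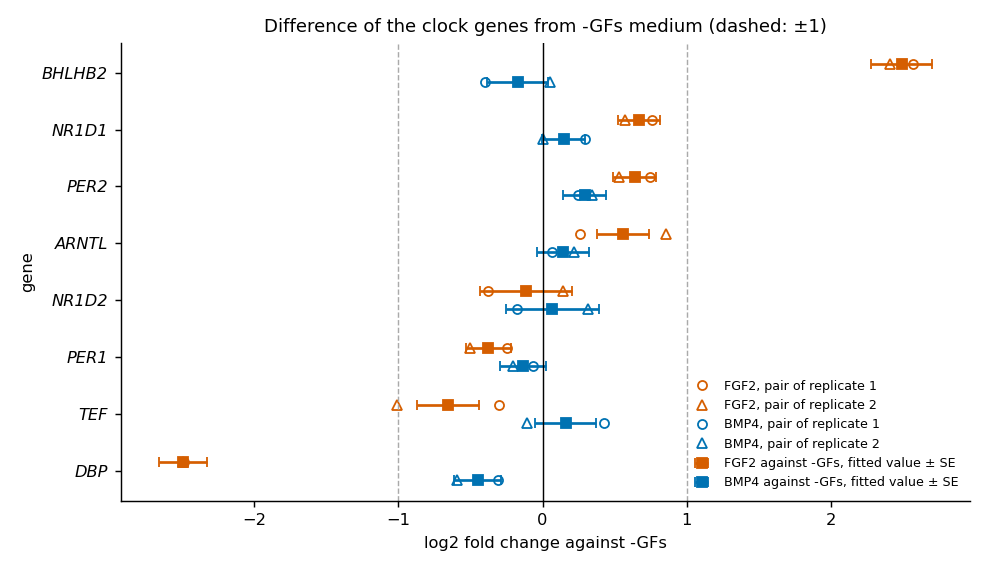
Log2 fold change of the 8 detected clock genes against -GFs, for FGF2 and BMP4. Squares with bars are fitted values ± SE, open symbols the 2 replicate pairs, and dashed lines mark a log2 fold change of 1 in either direction. DBP at -2.49 and BHLHB2 at 2.49 with FGF2 lie beyond the dashed lines, all other fitted values lie within them, and of the pairs of the other genes the second pair of TEF with FGF2 (-1.01) reaches past them.

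Over the 8 detected genes, 4 were higher and 4 lower with FGF2, and the median absolute log2 fold change was 0.65, against 0.24 over all 11872 genes. BHLHB2 was the 1 gene of the 8 past the threshold of a call upwards, which 2.28% of all genes passed, and DBP the 1 gene past it downwards, which 1.25% passed. At an adjusted p under 0.1 whatever the fold, the count was 4 of 8 (DBP, PER2, NR1D1 and BHLHB2), where the share over all genes was 11.8%. When the model held the replicate as a block, it was 7 of 8, all but NR1D2, and the share over all genes was 37.7%. With the block, limma's SE ran only from 0.14 to 0.16 over the 8 genes, so a gene's own spread weighs little in it. The FGF2 arrays did not overlap the -GFs arrays for 7 of 8 genes, as for 53.7% of all genes. Since the genes were chosen with these values, nothing is read from these counts.

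With BMP4, the median absolute log2 fold change of the 8 genes was 0.15, against 0.11 over all genes. By limma, 0 of the 8 passed the call, as did 0.00842% of all genes, and 0 passed an adjusted p of 0.1 with or without the replicate block. The BMP4 arrays did not overlap the -GFs arrays for DBP, PER2 and NR1D1, 3 of 8 genes, where the share over all genes was 24.0%. For NR1D1 the groups were apart by only 0.0007 log2 units, which is a tie in practice. Between FGF2 and BMP4, DBP and BHLHB2 passed the call, 2 of 8 genes against 3.07% of all genes. The genes were chosen with these values, so nothing is read from these counts either. The comparisons of FGF2 and of BMP4 with -GFs share the -GFs arrays, so their values are not independent of each other.

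Genes of the clock outside the 10 were listed by their known role, with earlier results of these arrays in view. Of 44 such genes, 43 were on the array and 28 passed the filter. With FGF2, 2 of the 28 were called up and 1 down by limma, all of them output genes, where the shares over all genes were 2.28% and 1.25%. At an adjusted p under 0.1 whatever the fold, 3 were higher and 2 lower, beside 11.8% of all genes, and 23 did not pass. Their median log2 fold change was 0.22 (20 higher, 8 lower), against -0.02 over all genes.

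CCRN4L, the array's name for nocturnin (Noct), a rhythmic gene that is also known as an early response gene, rose with FGF2. Its raw intensity was 310.2 and 287.7 in -GFs, 1812.2 and 2286.3 with FGF2, and 243.4 and 328.9 with BMP4. Both FGF2 arrays were far above the 4 others. Its second retained probe gave 1.80, but was detected on 2 of the 6 arrays and so passed the filter through a single group only. On its main probe CCRN4L had a log2 fold change of 2.84 ± 0.20 (SE, n = 2 per group), with a limma adjusted p of 0.00346. It was called in 16 of the 17 alternative settings, the methods' t-test with adjustment being the exception, and its adjusted p ran from 1.28e-10 to 0.241.

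2310036D04RIK, a name that RefSeq lists as a synonym of pyridoxal kinase (Pdxk), a target of the D-box factors in vitamin B6 metabolism, rose as well. Its raw intensity was 1596.1 and 1395.3 in -GFs, 5422.6 and 6281.0 with FGF2, and 1182.8 and 1036.2 with BMP4. The log2 fold change was 2.07 ± 0.17 (SE, n = 2 per group) with a limma adjusted p of 0.00459. It was called in the same number of settings, with adjusted p from 2.16e-08 to 0.223. The probe that carries the name PDXK gave 0.65 and was detected on 2 of the 6 arrays, so the probes of this gene disagreed in size.

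USP2, a deubiquitinase with rhythmic expression in many tissues, fell with FGF2. Its raw intensity was 775.2 and 593.0 in -GFs, 322.3 and 286.6 with FGF2, and 436.9 and 327.0 with BMP4. The levels of both factors lay below -GFs without overlap. Its log2 fold change was -1.06 ± 0.19 with FGF2 (SE, n = 2 per group, limma adjusted p = 0.0296) and -0.75 ± 0.19 with BMP4 (limma adjusted p = 0.999, or 0.0525 with the replicate block). The FGF2 call was lost without -GFs replicate 1 (limma adjusted p = 0.103), without FGF2 replicate 1 (0.166) or without FGF2 replicate 2 (0.219), with log2 fold changes of -1.02, -1.11 and -1.01, and by the methods' t-test with adjustment (0.229). Between FGF2 and BMP4, USP2 differed by -0.31 (limma adjusted p = 0.425).

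At an adjusted p under 0.1 but below the fold threshold, CREM, a cAMP response factor, rose by 0.61 ± 0.18 (limma adjusted p = 0.0995), and LPIN1, a phosphatidate phosphatase of lipid synthesis, fell by 0.74 ± 0.20 on the log2 scale (limma adjusted p = 0.0818). The other detected probes of CREM gave 0.24 and 0.08, and the other of LPIN1 gave -0.51. CREM was past this threshold neither with median scaling (limma adjusted p = 0.164), without a detection filter (0.102) or with the mean of its probes (0.247), nor without any single array (0.116 to 0.393). LPIN1 was past it under each normalization and filter tried, but not without -GFs replicate 2, either FGF2 array or either BMP4 array (limma adjusted p = 0.112 to 0.375). By the methods' t-test with adjustment neither gene passed (0.399 and 0.407). SRF, the serum response factor through which serum reaches PER genes, had a log2 fold change of 0.99 ± 0.32 (limma adjusted p = 0.121, or 0.00032 with the replicate block). Its replicate pairs gave 1.40 and 0.58, and the value with the block leans on the spread that limma pools over genes.

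In the core of the loop, 0 of the 4 detected genes passed an adjusted p of 0.1 in limma with FGF2, and 2 did with the replicate block (CLOCK, 0.00753, and GM129, 0.0173). The shares over all genes were 11.8% and 37.7%. CLOCK, the partner of ARNTL, had a log2 fold change of 0.64 ± 0.43 (adjusted p = 0.43), with 10.51 and 9.27 on the -GFs arrays as against 10.76 and 10.30 with FGF2. GM129 (Ciart), a repressor of the ARNTL complex, gave 0.49 on its main probe. CRY2, the relative of CRY1, gave -0.21, and TIMELESS gave -0.19. NPAS2, ARNTL2 and BHLHB3 (Bhlhe41, the relative of BHLHB2) were not detected on any array.

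Of the activators of ARNTL that compete with NR1D1 and NR1D2, RORA and RORB did not pass the filter. Among the D-box factors, HLF, like DBP and TEF of the PAR bZIP family, had a log2 fold change of -0.07 with FGF2. Of the kinases and ubiquitin ligases that act on PER and CRY proteins, 4 of 8 were detected and 0 passed, CSNK1E giving 0.47 (limma adjusted p = 0.128, or 0.0187 with the replicate block). Between FGF2 and BMP4, CSNK1E was higher with FGF2 by 0.73 (limma adjusted p = 0.0504). Of the 7 partners of the clock proteins, 7 were detected and 0 passed, WDR5 giving the highest value of 0.75 (limma adjusted p = 0.121, or 0.00116 with the replicate block). Of the 5 detected input factors, CREM alone passed without the block, and CREM and SRF with it. With the replicate block, 11 of the 28 genes passed upwards and 2 downwards, beside the 37.7% of all genes.

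With BMP4, 0 of the 28 genes passed in limma, 1 had an unadjusted p under 0.05, and by the methods' t-test 0 did. Over all 11872 genes, 215 had such a p in limma and 432 by the methods' t-test. The median log2 fold change of the 28 genes was -0.06, with 9 higher and 19 lower. Over all 11872 genes the median was 0.002, with 5979 higher and 5893 lower. Nothing is read from these counts. With the replicate block, USP2 was the 1 gene of the 28 at an adjusted p under 0.1, beside 26 of all 11872 genes. CCRN4L had a log2 fold change of -0.01 with BMP4, and 2310036D04RIK of -0.33.

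**Figure D4:**
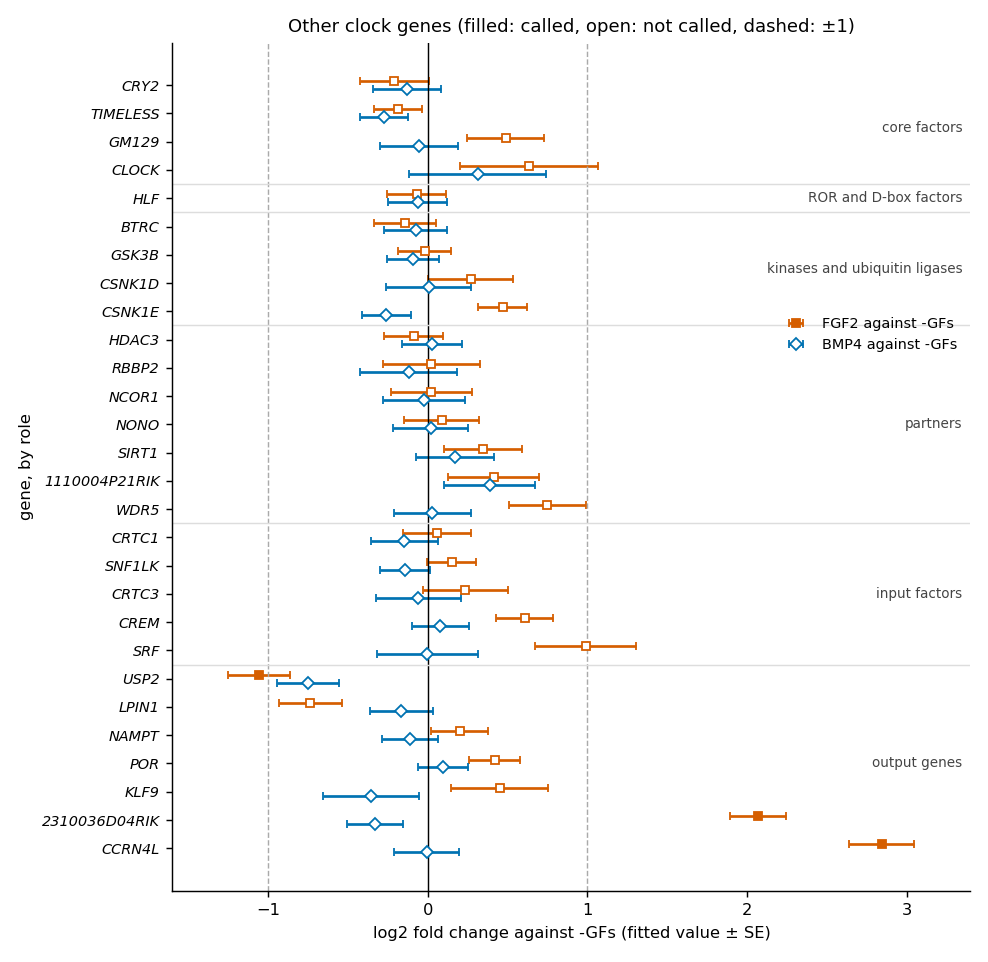
Log2 fold change ± SE of the 28 other clock genes that passed the filter, FGF2 (squares) and BMP4 (diamonds) against -GFs, arranged by role, with filled symbols for called values and dashed lines at a log2 fold change of 1 in either direction. CCRN4L at 2.84, 2310036D04RIK at 2.07 and USP2 at -1.06 carry filled FGF2 symbols, and no BMP4 symbol is filled.

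PER1 is a known target of the glucocorticoid receptor, so the receptor and its targets were read on the same arrays. The receptor itself (NR3C1) and CRISPLD2, each with a single probe, were not detected on any array, and 5 of the 7 listed genes passed the filter. A probe that failed cannot be told apart from an absent transcript here. SGK1, a kinase that serum also induces, rose with FGF2 by 0.78 ± 0.15 (limma adjusted p = 0.0349). TSC22D3 (GILZ) had a log2 fold change of -0.97 ± 0.31 (limma adjusted p = 0.119, or 0.00011 with the replicate block). Its replicate pairs gave -0.71 and -1.24, and its second detected probe gave a smaller difference of -0.51. FKBP5 gave -0.27. HSD11B1 gave -0.04 ± 0.18 and ZBTB16 gave 0.07 ± 0.19, both within their SE of 0. SGK1 was thus the 1 gene of the 5 at an adjusted p under 0.1, beside 11.8% of all genes, and nothing is read from this count. With BMP4, 0 of the 5 passed in limma, and their median was -0.12.

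The genes whose pattern over the 6 arrays was most like that of DBP were found by the root mean square difference of log2 intensities, each gene centred on its own mean. They were ARHGEF19 (a difference of 0.19), DDIT4L (0.22), FAM107A (0.23), HYAL1 (0.27) and FZD2 (0.30), with log2 fold changes from -1.82 to -2.60 with FGF2. For BHLHB2 they were LOC381140 (0.18), CCRN4L (0.20), SSTR2 (0.20), ITGA5 (0.22) and 2310004N11RIK (0.22), with log2 fold changes from 2.22 to 2.84 with FGF2. CCRN4L was among the 5 genes nearest to BHLHB2, and 0 of the other clock genes were among those nearest to DBP. This distance largely follows the size of the FGF2 difference, which was 2.84 for CCRN4L and 2.49 for BHLHB2. The lowest FGF2 value among the other clock genes was -1.06, far from -2.49 for DBP. Both outcomes thus follow from values already given, and nothing more is read from them.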

How the data were processed

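Pure PA6 cultures were measured after 3 h on 6 arrays, 2 per group, grouped by the labels. The authors deposited non-normalized intensities (mean bead brightness per probe, linear scale) with detection p-values. Per the labels, GenomeStudio 2011.01 was used, and the methods name cubic spline normalization, which the deposited values do not yet carry. A further 9 columns without heading, filled on 2045 lines, and 6 leftover lines were not used.

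The spline was re-implemented in R 4.3.3 (452 quantiles mapped to the mean of the 6 arrays) and values were converted to log2. A gene was represented by its detected probe with the largest mean. A single limma 3.58.1 model (lmFit, eBayes) of the 3 groups, without block, left 3 residual degrees of freedom. The procedure was run on simulated data with independent errors and no replicate effect, so that run does not cover the pairing of the arrays. The SE is limma's for the fit of the named gene, and adjusted p-values are Benjamini-Hochberg over 11872 genes. The small number of arrays limits the precision: an exact test of 2 against 2 arrays cannot go below p = 0.333. Arrays of equal replicate number are paired, since the labels describe wells of 1 biological replicate and their deviations correlate (0.602, 0.741 and 0.579). The block is an alternative with 2 residual degrees of freedom. Its p-values lean on the spread that limma pools over all genes, more than on the replicates of the gene. Other alternatives were quantile normalization, neqc, median scaling, detection filters, the mean of probes, each array left out, other thresholds and tests.

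The 10 genes and the lists of other genes were chosen with earlier results of these data known. Named genes were all probes of the 10 genes and, of the others, those called, the 3 largest rises and falls with FGF2, and members of a group whose count is given. Symbols are those of the array, and lists were matched through RefSeq synonyms. Probe sequences were not used here, and 1 gene of the lists is not reported here.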

Additional observations from a re-analysis of the deposited data

How the results depend on the processing

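Counts of genes rested on the normalization, the threshold and the test. The methods name limma for the arrays, and the t-test of their general statistics section is an alternative added here. The 419 genes called with FGF2 became 794 with neqc, 1402 without a threshold on the fold and 0 by the methods' t-test with Benjamini-Hochberg adjustment, where 1780 genes had an unadjusted p under 0.05. The 365 genes called between FGF2 and BMP4 became 640, 1076 and 0 under the same 3 settings, and the 3 other clock genes called with FGF2 became 5, 5 and 0. Of the 10 clock genes, 2 were past the threshold with FGF2, 3 with neqc (NR1D1 at 1.05), 4 without a threshold on the fold and 0 by the adjusted t-test. The 1 gene called with BMP4 became 2 without a detection filter, 2 with limma's trend and robust options and 0 by the adjusted t-test. Of the genes called with FGF2, 64.7% were higher, against 54.4% with neqc and 49.9% with median scaling.

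The replicate block raised the BMP4 count from 1 to 10 genes, and gave 469 genes for FGF2 and 417 between the factors, with DBP and BHLHB2 past the threshold. The block without a threshold on the fold was added after seeing the data. It gave 4478 genes for FGF2, 26 for BMP4, 4049 between the factors, 13 and 1 of the other clock genes for FGF2 and BMP4, and 7 of the 8 detected clock genes for FGF2.

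Leaving out 1 array in turn gave 103 to 444 genes for FGF2, 0 to 2 for BMP4, 93 to 387 between the factors and 2 to 5 other clock genes for FGF2. The low counts came without FGF2 replicate 1 (179 and 124) or FGF2 replicate 2 (103 and 93), in which a group of 1 array is assumed to vary like the others. The BMP4 count fell to 0 without either -GFs array or without BMP4 replicate 1, and was 2 without BMP4 replicate 2. The count of 5 other clock genes came without -GFs replicate 2, with SRF and WDR5 added. With 1 array left out, the FGF2 value of DBP lay between -2.52 and -2.46 and that of BHLHB2 between 2.42 and 2.55. Both genes were chosen with these values known, so this is a description and no support for a call. Over the alternatives, the FGF2 value of DBP ran from -2.77 to -2.46 and that of BHLHB2 from 2.40 to 2.82. With FGF2, the sign changed for NR1D2 alone, without -GFs replicate 1 or FGF2 replicate 2 (range -0.57 to 0.34). With BMP4, it changed under at least 1 setting for ARNTL, BHLHB2, NR1D2, PER2 and TEF, whose values all lay between -0.46 and 0.52.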

Other observations

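A probe named PER on the array, a name that RefSeq lists as a synonym of Per1, lay outside the choice of probes by symbol. It was detected on 1 of the 6 arrays, with raw intensities between 159.9 and 205.3.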
